A study of Mus musculus with 24 samples.

Results

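The genes described here are 43 that interferon is known to induce in mouse cells, taken by name and grouped by role. For each, the TPM (transcript abundance per length, relative to all transcripts of the library) of all transcripts carrying the gene's reference name was summed in each of 24 libraries and scaled between libraries. A transcript with the name was found for 40 of the 43, among 35260 genes with a named transcript in all. Of these, 34 had at least 1 scaled TPM in at least 2 libraries and were tested among 16233 genes. Mx1, Mx2, Oas3, Parp14, Rsad2 and Sp100 stayed below that level, with 1.79 scaled TPM of Mx2 in 1 library as the highest value, and Trim25, Oasl1 and Cmpk2 were not found by name and are not analysed here.

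RNA came from C3H 10T1/2 cells, fibroblasts that grow from C3H mouse embryos without end and that MyoD, a muscle transcription factor, turns into muscle. Clone 2 and clone 1, each a single knockout clone of the long noncoding RNA LncMyoD (KO2 and KO1 in the labels), were compared with wild type cells. Each line was given both MyoD adenovirus and LncMyoD plasmid, the adenovirus alone, the plasmid alone or neither, with 2 libraries per group. No group had an empty virus or an empty plasmid, so a response to either includes any response to infection or transfection. Cells were kept in 10% fetal bovine serum, replaced by 2% horse serum once transdifferentiated, so the medium and MyoD may go together. The labels do not say that replicates were separate cultures, so the p-values speak for the spread among these libraries only, and that spread may be technical.

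Clone 2 libraries stood apart from all others. A ribosomal repeat copy on chromosome 17 held 2.68% to 7.90% of TPM in clone 2 libraries, 36.8% to 70.0% in clone 1 libraries and 55.6% to 69.2% in wild type libraries. Scale factors were 3.87 to 6.32 in clone 2, 0.35 to 0.49 in clone 1 and 0.46 to 0.78 in wild type, and scaled TPM is the TPM divided by them. Replicates correlated at r = 0.93 to 0.96 across tested genes in clone 2, 0.71 to 0.83 in clone 1 and 0.87 to 0.88 in wild type, and genes within 1 library are not independent replicates. Depth estimated from the ratio of coverage to FPKM was 2.43 to 5.93 gigabases per library. How many reads a value rests on is unknown, and a value of 0 can be a failed assembly, so such genes are given as listed at 0. Myod1 was at 240 to 275 scaled TPM in clone 2, 4006 to 7466 in clone 1 and 4976 to 6796 in wild type with the virus, against at most 9.04 scaled TPM in any library without it. These Myod1 levels should not be compared between lines, because the scale factors differ so much. The 10 fibroblast markers were detected in every line. Of the 10 macrophage and leukocyte markers, Adgre1, Csf1r, Itgam, Tyrobp, Fcer1g, Laptm5 and Cd52 were listed at 0 in all 24 libraries, while Cd14 was above 0 in all 24 (up to 9.03 scaled TPM), Ptprc in 17 (up to 5.37) and Cd68 in 2. Of the plasmacytoid dendritic cell markers, Siglech was listed at 0 throughout, Tcf4 was above 0 in all 24 libraries (2.52 to 19.3) and Ccr9 in 15. Bst2, on that list and also among the genes described here, was at 6.80 to 28.2 scaled TPM in clone 2. It was at 0 to 2.56 in clone 1 and 0 to 3.25 in wild type.

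Type I interferon binds the receptor Ifnar1 and Ifnar2, and a complex that holds Stat2 and Irf9 then enters the nucleus and binds the interferon-stimulated response element in the promoters of antiviral genes. Interferon gamma acts through the gamma-activated site instead. Fibroblasts make interferon beta when RNA sensors such as Ifih1 and Ddx58, or DNA sensors acting through Tmem173, detect a virus, and Irf3 can also turn on several of these genes without interferon.

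Promoter sequences from RefSeq (build GRCm38.p6, 250 bases before to 50 after a gene's start) were found for 33 of the 43 genes. The core of the response element, spelled GAAANNGAAA and searched on both strands, occurred in 17 of these 33, or 51.5%, and in 42.5% of their 40 promoters, against 3.44% of the 32851 promoters of all genes searched. The core of the gamma-activated site, TTCNNNGAA, which is its own reverse complement, occurred in 22.5% of the 40 promoters and in 8.30% of all. Matches are a description of the letters, and a promoter without one says nothing of a factor. The stretches below belong to the 6 genes that the virus raised in clone 2 and whose matches lie before the start, followed by a pair that carries the core and did not pass the test there. Capitals mark matches of GAAANNGAAA or of its reverse complement, overlapping matches run together, and each stretch is written 5′ to 3′ on the strand of its gene with 15 bases on either side, or up to the start.

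Isg15: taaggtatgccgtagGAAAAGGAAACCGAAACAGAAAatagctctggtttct
Ifit1: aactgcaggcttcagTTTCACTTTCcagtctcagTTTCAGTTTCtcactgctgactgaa
Ifit3: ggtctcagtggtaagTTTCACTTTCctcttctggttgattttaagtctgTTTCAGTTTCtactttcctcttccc
Ifit3b: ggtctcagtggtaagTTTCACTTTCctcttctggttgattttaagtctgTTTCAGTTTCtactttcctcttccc
Bst2: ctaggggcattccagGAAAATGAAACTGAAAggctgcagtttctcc
Oas1a: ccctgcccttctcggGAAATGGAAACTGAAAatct
Gbp2: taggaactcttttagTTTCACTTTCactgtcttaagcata
Gbp3: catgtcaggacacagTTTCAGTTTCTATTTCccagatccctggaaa

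The Isg15 stretch is chr4:156200860-156200911 on the minus strand and holds 3 overlapping matches from 78 to 57 bases before the start. The Ifit1 stretch is chr19:34640770-34640828 on the plus strand, with matches that begin 104 and 85 bases before the start. The stretches of Ifit3 (chr19:34583358-34583431, plus strand) and Ifit3b (chr19:34607754-34607827, plus strand) are equal in all 74 bases. Ifit3 and Ifit3b are near-identical copies, reads may be split between them, and the level of each is uncertain. The Bst2 stretch is chr8:71537572-71537617 and the Oas1a stretch chr5:120907526-120907560, both on the minus strand with 2 overlapping matches. The stretches of Gbp2 (chr3:142620589-142620628) and Gbp3 (chr3:142559984-142560029), which encode guanylate-binding GTPases, lie on the plus strand. Ifitm3 carried 2 matches, both after its start, and Rtp4 had no entry in the table. In all, the core was held by 7 of the 7 genes that the virus raised in clone 2 and that had an entry. It was held by 8 of the 20 other tested genes with an entry. The 7 include Oas1a, which entered the test only through clone 2 with the virus. They also include both Ifit3 and Ifit3b, whose equal stretches are not independent. The difference between the 7 and the 20 was not tested, and no conclusion is drawn from it.

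In clone 2 the MyoD adenovirus raised 8 of the 34 tested genes and lowered none. They were 3 of the 4 Ifit genes, Isg15, Oas1a, Bst2, Ifitm3 and Rtp4, and their log2 increases were between 1.04 and 2.27. A gene was called where limma gave a Benjamini-Hochberg adjusted p under 0.05 over all tested genes and a log2 change of at least 1 on log2(scaled TPM + 1). By this rule 4.01% of all tested genes were called in either direction, 1.74% higher and 2.27% lower. The genes of the set were chosen with earlier results of these data known, so their share called is no independent test of the set. The split depended on the scaling: TPM as deposited gave 8 higher and 5 lower (18.9% of all genes called in either direction), scaling within clone 2 gave 7 and 4 (10.5%) and quantile normalization 5 and 2 (3.07%). Oas1a reached 1 scaled TPM in clone 2 libraries with the virus alone or with both agents and in no other library, so it entered the test only through the group where it was high, as did Zbp1 and Gbp7. The median log2 change was 0.44 over the 34 genes and 0.00 over all tested genes. In bulk RNA, a change in the number of cells that express a gene and a change in RNA per cell cannot be told apart.

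**Figure D1:**
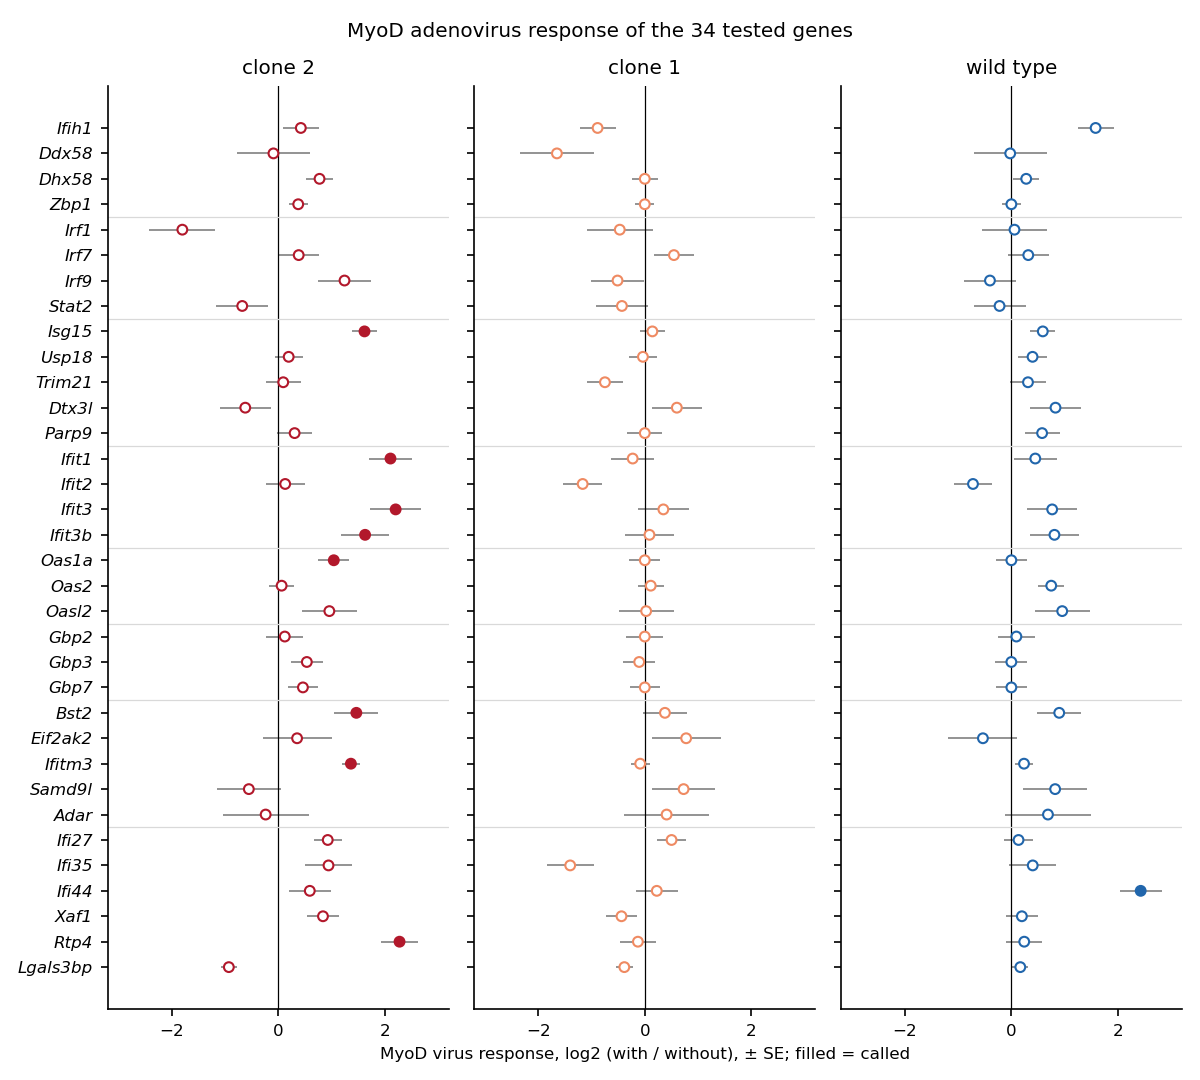
MyoD adenovirus response of the 34 tested genes, as log2 of the level with over without the virus (x axis, ± SE, 4 libraries each), in clone 2, clone 1 and wild type; grey lines separate the roles and filled points were called. In clone 2 the 8 filled points lie between 1.04 and 2.27, clone 1 has none, and wild type has Ifi44 alone at 2.42. The SE rests on a spread estimated over all lines together, so it is the same for a gene in each line.

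The IFIT proteins bind viral RNA that lacks the host cap modification. Ifit1 was at 22.3 and 21.8 scaled TPM with the virus alone and 14.6 and 26.9 with virus and plasmid in clone 2, against 2.45 and 4.83 with the plasmid alone and 4.0 and 5.73 without treatment. All 4 libraries with the virus were above all 4 without it, and the log2 change was 2.1 ± 0.40 (SE, adjusted p = 0.0044). Ifit3, which stabilises Ifit1 on RNA in human cells, was at 25.7, 26.2, 27.1 and 31.6 scaled TPM with the virus in clone 2, against 4.26, 4.25, 8.74 and 4.54 without it (log2 2.20 ± 0.47, adjusted p = 0.00867). Ifit3b was at 16.9, 12.7, 5.38 and 15.3 scaled TPM with the virus in clone 2, against 2.81, 4.17, 3.02 and 2.50 without it (log2 1.63 ± 0.46, adjusted p = 0.042). Neither pair of groups overlapped. Ifit2, the first gene of the same cluster, did not pass the test in clone 2: it was at 1.36, 2.18, 5.07 and 1.96 scaled TPM with the virus, against 2.16, 1.03, 2.92 and 2.75 without it (log2 0.13 ± 0.36, adjusted p = 1).

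**Figure D2:**
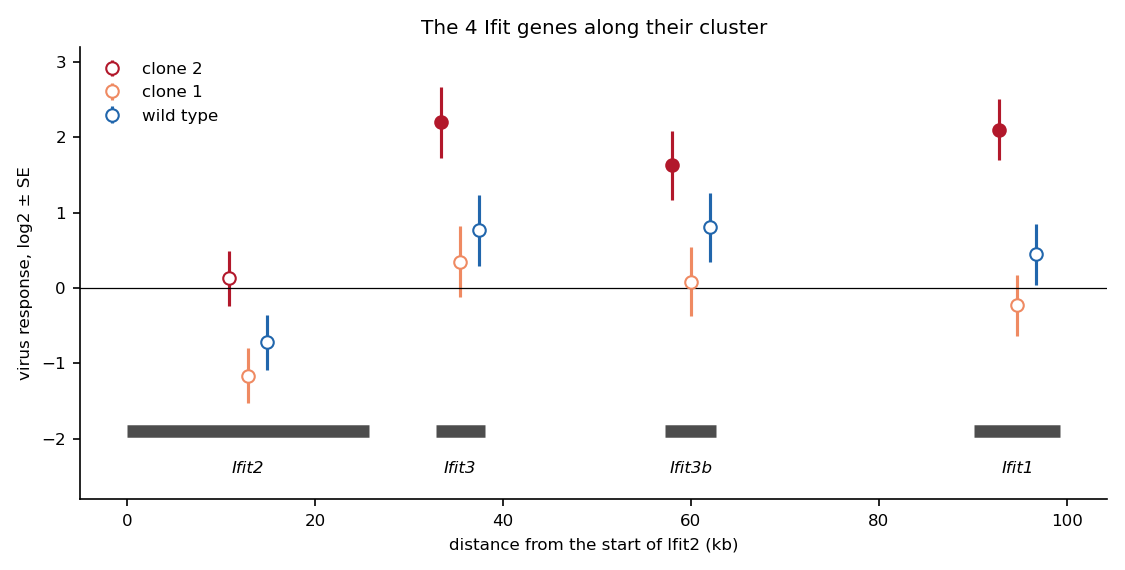
The 4 Ifit genes drawn to scale by distance in kb from the start of Ifit2 (x axis, dark bars), with the log2 virus response ± SE of each line above them (y axis, filled where called). In clone 2 Ifit3, Ifit3b and Ifit1 lie between 1.63 and 2.20 and Ifit2 lies at 0.13. The SE of a gene is shared by all lines.

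Isg15, a ubiquitin-like protein that is joined to other proteins, was at 9.26 and 6.22 scaled TPM with the virus alone and 4.57 and 6.55 with virus and plasmid in clone 2, against 1.86 and 1.02 with the plasmid alone and 1.16 and 1.80 without treatment. The groups did not overlap (log2 1.62 ± 0.23, adjusted p = 0.000516). Usp18, which removes Isg15 from proteins and restrains the receptor, was at no more than 0.45 scaled TPM in any clone 2 library. Trim21 (log2 0.09 ± 0.33), Dtx3l (-0.62 ± 0.47) and Parp9 (0.31 ± 0.33), the other tested genes of that system, did not pass the test in clone 2. Reference-named transcripts held 3.58% of the assembled TPM at Usp18 in clone 2, so its level rests on a small share of the locus.

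Ifitm3, which blocks viral fusion in endosomes, was at 286 and 202 scaled TPM with the virus alone and 201 and 247 with virus and plasmid in clone 2, against 82.7 and 97.2 with the plasmid alone and 91.1 and 86.8 without treatment (log2 1.36 ± 0.18, adjusted p = 0.00018). Bst2 (tetherin), which holds budding virions at the cell surface, was at 28.2, 19.2, 19.3 and 26.9 scaled TPM with the virus in clone 2, against 8.94, 8.24, 7.04 and 6.80 without it (log2 1.47 ± 0.41, adjusted p = 0.042). Both genes were higher in every library with the virus than in any without it. Of the other effectors, Samd9l (-0.55 ± 0.60), Eif2ak2 (0.35 ± 0.65) and Adar (-0.24 ± 0.80) did not pass the test, and Samd9l was lower in all 4 libraries with the virus.

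Oas1a, which makes the short oligoadenylates that switch on RNase L, was at 1.5, 1.20, 0.67 and 4.45 scaled TPM with the virus in clone 2, against 0, 0.93, 0 and 0.44 without it (log2 1.04 ± 0.29, adjusted p = 0.039). These low groups overlapped, and Oas1a was listed at 0 in all clone 1 and wild type libraries. Oasl2, a related protein, was at 3.99, 1.12, 3.29 and 4.83 scaled TPM with the virus in clone 2, against 0.97, 0.84, 1.64 and 0.95 without it (log2 0.96 ± 0.51, adjusted p = 0.397). Rtp4, an interferon-induced receptor transporter, was at 3.18 and 11.2 scaled TPM with the virus alone and 9.16 and 19.7 with virus and plasmid in clone 2, against 0.97 and 0.81 with the plasmid alone and 1.64 and 1.09 without treatment. Its groups did not overlap (log2 2.27 ± 0.34, adjusted p = 0.000689).

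**Figure D3:**
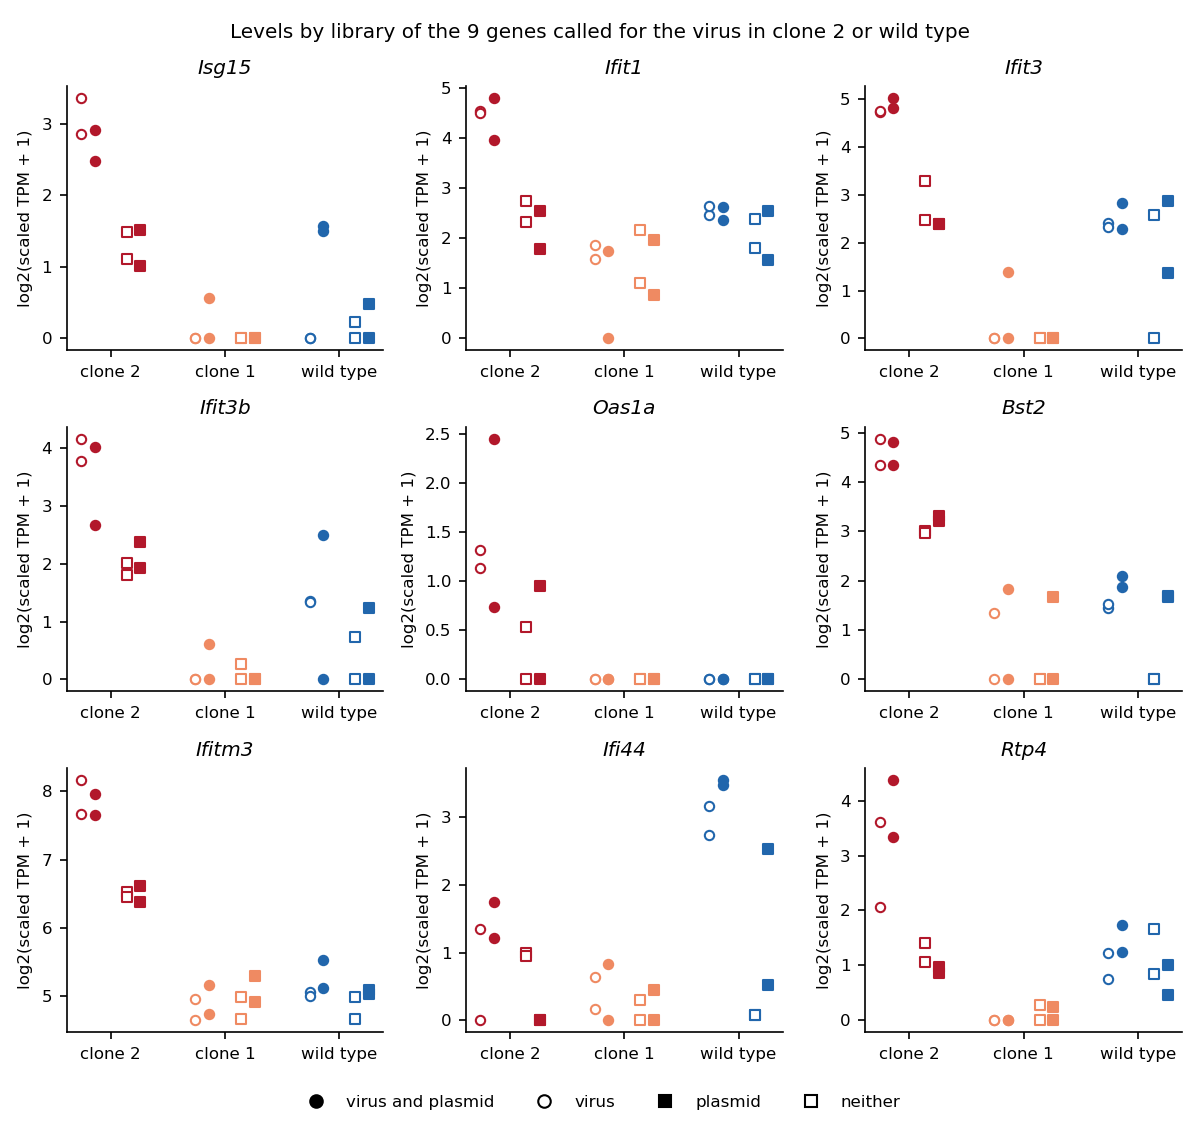
Levels of the 9 genes called for the virus in clone 2 or wild type, as log2(scaled TPM + 1) of each library (y axis), by line (x axis), with the 4 virus libraries (circles) left of the 4 without (squares) and plasmid libraries filled. Clone 2 circles lie above clone 2 squares for Isg15, Ifit1, Ifit3, Ifit3b, Bst2, Ifitm3 and Rtp4, while Ifi44 separates in wild type.

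Several genes lay apart between the groups of clone 2 without a call. Ifi27, a mitochondrial protein, was at 148 to 196 scaled TPM with the virus, against 84.2 to 93.0 without it, which passed the adjusted p but not the size required (log2 0.93 ± 0.26, adjusted p = 0.045). Lgals3bp, a secreted glycoprotein, was at 39.9, 33.7, 31.6 and 47.8 scaled TPM with the virus, against 74.4, 90.2, 55.1 and 75.4 without it (log2 -0.93 ± 0.15, adjusted p = 0.0015). Irf1, a transcription factor with the gamma-activated site core in its promoter, was at 13.1, 8.70, 8.78 and 11.2 scaled TPM with the virus, against 39.9, 47.0, 23.4 and 49.0 without it (log2 -1.80 ± 0.62, adjusted p = 0.103). The groups of these 3 genes did not overlap, with Ifi27 higher and both Lgals3bp and Irf1 lower under the virus. Irf9 (1.24 ± 0.49, adjusted p = 0.17), Dhx58 (0.77 ± 0.24, adjusted p = 0.072), Ifi35 (0.94 ± 0.44, adjusted p = 0.291) and Xaf1 (0.84 ± 0.30, adjusted p = 0.116) also lay higher without overlap. In all, 12 of the 34 genes were higher in every virus library of clone 2 and 3 were lower, against 13.6% and 9.82% of all tested genes. Of the remaining genes, the sensors Ifih1 (0.42 ± 0.34), Ddx58 (-0.09 ± 0.69) and Zbp1 (0.38 ± 0.18), the guanylate-binding Gbp2 (0.12 ± 0.35), Gbp3 (0.54 ± 0.30) and Gbp7 (0.46 ± 0.29), and Oas2 (0.06 ± 0.24) and Ifi44 (0.59 ± 0.39) did not pass the test in clone 2, as log2 ± SE. Irf7, which amplifies interferon production, was at 1.80, 0.97, 2.37 and 0.13 scaled TPM with the virus in clone 2, against 1.58, 0.087, 0.37 and 0.88 without it (log2 0.38 ± 0.38, adjusted p = 0.869). Stat2 was at 0.55, 0.34, 1.48 and 1.72 scaled TPM with the virus in clone 2, against 1.60, 2.53, 2.00 and 2.30 without it (log2 -0.67 ± 0.49, adjusted p = 0.646). Reference-named transcripts held 19.9% of the assembled TPM at Stat2 in clone 2, 11.3% in clone 1 and 7.84% in wild type. Its levels in every line therefore rest on a small share of the locus.

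Several measures of the clone 2 libraries separated completely by the virus, and their part in these results was not tested. Scale factors were 3.87 to 4.70 with the virus, against 5.71 to 6.32 without it, and 10416 to 10969 genes, against 12568 to 13253, were at 1 TPM or more. Reference-named transcripts numbered 32806 to 35203 with the virus, against 42241 to 46681 without it, and the ribosomal share was 5.62% to 7.90%, against 2.68% to 4.91%. The muscle list (8 genes) summed to 100.2 to 203 scaled TPM with the virus in clone 2, against 0.42 to 0.87 without it. The fibroblast list (10 genes) summed to 1683 to 2052 with the virus, against 2178 to 3003 without it, but its members differed. Col1a1 was at 122 to 158 scaled TPM with the virus, against 538 to 697 without it, S100a4 at 671 to 814, against 402 to 466, and Vim at 265 to 323, against 176 to 205. Col1a2 was at 581 and 511 scaled TPM in the libraries with the plasmid alone and at no more than 5.6 in the other 6. Mitochondrial shares (9.34% to 14.0% with the virus, against 7.91% to 10.2%) and the macrophage and leukocyte sum (1.49 to 9.02 scaled TPM, against 5.93 to 7.40) overlapped. In the other lines the muscle list summed to 0.047 to 17.2 in clone 1 and 34.2 to 47.5 in wild type with the virus and was at 0 in every library without it.

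The calls of Ifit1, Isg15, Ifitm3 and Rtp4 in clone 2 held when any 1 of the 8 clone 2 libraries was left out. Ifit3 lost its call without untreated replicate 2 (log2 2.00) and Bst2 without any 1 of the 8 (log2 1.33 to 1.60). Ifit3b lost its call without any but replicate 1 of virus and plasmid (log2 1.29 to 1.97 over all 8 fits). Oas1a lost its call in 6 of the 8, keeping it without plasmid replicate 2 or without virus and plasmid replicate 1. Its log2 change was 0.62 to 1.47 over all 8 fits. With TPM as deposited, 7 of the 8 stayed called and Ifitm3 fell below the size required (log2 0.90), as it did with quantile normalization (1.00), which also ended the calls of Bst2 and Ifit3b. With a pseudocount of 0.1 the calls left were those of Ifitm3 and Rtp4. With TPM as deposited the median log2 change of all tested genes was -0.22 for the virus in clone 2, -0.12 for the plasmid in wild type, -0.14 for clone 1 against wild type and 1.34 for clone 2 against wild type, where it was -0.01 to 0.00 after scaling.

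In wild type cells the virus raised 1 of the 34 genes, Ifi44, a cytoplasmic protein induced by interferon, where 0.253% of all tested genes were called. Ifi44 was at 5.65 and 7.94 scaled TPM with the virus alone and 10.1 and 10.7 with virus and plasmid, against 0.43 and 4.79 with the plasmid alone and 0.058 and 0.053 without treatment. The groups did not overlap, the second plasmid library lay closest to the virus libraries, and the log2 change was 2.42 ± 0.39 (adjusted p = 0.00849). Reference-named transcripts held 54.9% of the assembled TPM at Ifi44 in wild type, and with the unnamed transcripts of the locus added the change was 0.45 and the call ended. It also ended with TPM as deposited (2.13), with a pseudocount of 0.1 (4.08), with wild type fitted alone (2.42) and with wild type scaled alone (2.04).

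Ifih1, the sensor of long viral RNA known as MDA5, was at 2.49, 0.50, 6.23 and 7.33 scaled TPM with the virus in wild type, against 0.30, 0.79, 0.19 and 0.42 without it. The groups overlapped through the second library with the virus alone, and the change did not pass the test (log2 1.58 ± 0.34, adjusted p = 0.072). Isg15 was listed at 0 in both wild type libraries with the virus alone and was at 1.83 and 1.96 scaled TPM with virus and plasmid, against 0.40 and 0 with the plasmid alone and 0 and 0.17 without treatment (log2 0.59 ± 0.23, adjusted p = 0.693). Ifit1 was at 4.54, 5.29, 4.13 and 5.19 scaled TPM with the virus in wild type, against 4.81, 1.97, 4.26 and 2.52 without it (log2 0.45 ± 0.40, adjusted p = 1). Both genes overlapped between the groups. Ifitm3 was at 32.3, 31.1, 33.9 and 45.2 scaled TPM with the virus in wild type, against 33.0, 31.7, 24.3 and 30.6 without it (log2 0.24 ± 0.18, adjusted p = 1). Bst2 was at 1.71, 1.90, 3.25 and 2.66 scaled TPM with the virus in wild type, against 2.16 and 2.21 with the plasmid alone and 0 in both untreated libraries (log2 0.90 ± 0.41, adjusted p = 0.832). Only the untreated libraries of Bst2 stood apart. Irf7 was at 0.21, 0.48, 0.42 and 0.90 scaled TPM with the virus in wild type, against 0.027, 0.19, 0.28 and 0.28 without it (log2 0.32 ± 0.38, adjusted p = 1). Stat2 was at 0.51, 0.99, 3.45 and 0.43 scaled TPM with the virus in wild type, against 1.09, 0.54, 5.24 and 0.76 without it (log2 -0.22 ± 0.49, adjusted p = 1). Oasl2 was at 1.91, 3.23, 7.75 and 3.74 scaled TPM with the virus in wild type, against 5.65, 0.31, 1.99 and 0.40 without it (log2 0.95 ± 0.51, adjusted p = 0.971). All 3 overlapped, and the remaining changes in wild type lay between -0.72 (Ifit2) and that of Oasl2.

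In clone 1 no tested gene of the set was called for the virus with limma, where 1.42% of all tested genes were called. That share rests on a spread shared by all lines. With clone 1 fitted alone it was 0.0185%, again with 0 genes of the set. Of the 34, 6 had an unadjusted p under 0.05 in the main fit, against 2221 of 16233 in all. Ifih1 was listed at 0 in all 4 clone 1 libraries with the virus, against 0.25, 1.87, 0.955 and 0.66 scaled TPM without it (adjusted p = 0.245). Ifit1 was at 2.65, 2.01, 2.35 and 0 scaled TPM with the virus in clone 1, against 0.83, 2.92, 3.47 and 1.14 without it (log2 -0.23 ± 0.40, adjusted p = 0.921). Ifit1 overlapped, and Isg15 was listed at 0 in 7 of the 8 clone 1 libraries, with 0.48 scaled TPM in replicate 1 of virus and plasmid. Ifitm3 was at 30.2, 24.1, 35.0 and 25.9 scaled TPM with the virus in clone 1, against 29.4, 38.3, 30.7 and 24.5 without it (log2 -0.09 ± 0.18, adjusted p = 0.944). Bst2 was above 0 in 2 of 4 clone 1 libraries with the virus (1.56 and 2.56 scaled TPM), against 1 of 4 without it (2.2). These groups overlapped. Irf7 was at 1.90, 1.88, 0.21 and 1.44 scaled TPM with the virus in clone 1, against 0.074, 0.34, 0.29 and 1.91 without it (log2 0.55 ± 0.38, adjusted p = 0.606). Stat2 was at 0, 0.51, 3.01 and 0 scaled TPM with the virus in clone 1, against 0.031, 1.13, 2.98 and 1.27 without it (log2 -0.43 ± 0.49, adjusted p = 0.799). Oasl2 was at 0.53, 2.12, 0 and 0.68 scaled TPM with the virus in clone 1, against 0.84, 0.28, 2.16 and 0 without it (log2 0.03 ± 0.51, adjusted p = 1). All 3 overlapped, and over the 34 genes the changes in clone 1 ran from -1.65 ± 0.69 (Ddx58, adjusted p = 0.288) to 0.78 ± 0.65 (Eif2ak2, adjusted p = 0.684).

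The difference between lines in the virus response was tested directly. Clone 2 and wild type differed for 3 genes, where 1.78% of all tested genes were called: the response of clone 2 exceeded that of wild type by log2 2.03 ± 0.48 for Rtp4 (adjusted p = 0.039) and by 1.13 ± 0.25 for Ifitm3 (adjusted p = 0.028), and lay below it by log2 -1.09 ± 0.22 for Lgals3bp (adjusted p = 0.015). TPM as deposited gave 2 higher and 4 lower (10.8% of all genes called), and quantile normalization 0 and 1 (1.52%). The differences of Ifit1 (1.66 ± 0.57, adjusted p = 0.179), Isg15 (1.03 ± 0.33, adjusted p = 0.143), Ifit3 (1.44 ± 0.67, adjusted p = 0.371), Oas1a (1.04 ± 0.41, adjusted p = 0.259), Ifit3b (0.82 ± 0.65, adjusted p = 0.741) and Bst2 (0.57 ± 0.58, adjusted p = 0.851) did not pass the test. The call in clone 2 alone therefore does not show that these 6 genes respond differently there. Clone 1 differed from wild type for Ifih1 (log2 -2.47 ± 0.48, adjusted p = 0.040), where 0.308% of all tested genes were called, and the difference of Ifi44 was -2.20 ± 0.56 (adjusted p = 0.121). Leaving out 1 of the 16 libraries ended the call of Rtp4 in 12 cases, of Ifitm3 in 11, of Ifih1 in 8 and of Lgals3bp in 3. Over all 16 such fits the log2 difference was 1.65 to 2.42 for Rtp4 and 1.00 to 1.25 for Ifitm3. It was -2.77 to -2.16 for Ifih1 and -1.24 to -0.95 for Lgals3bp. Among other settings the call ended in 6 of 7 for Rtp4, 4 of 7 for Ifih1, 3 of 8 for Ifitm3 and 0 of 8 for Lgals3bp.

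The LncMyoD plasmid changed none of the 34 tested genes past the threshold in clone 2, clone 1 or wild type with limma, where 0.0431%, 0.906% and 0.0616% of all tested genes were called. An unadjusted p under 0.05 was reached by 1 of the 34 in clone 2, 2 in clone 1 and 7 in wild type, against 413, 1910 and 889 of all 16233 genes. In clone 2 the plasmid change was -0.22 ± 0.23 for Isg15, -0.26 ± 0.40 for Ifit1, -0.05 ± 0.18 for Ifitm3 and 0.12 ± 0.41 for Bst2 on the log2 scale, each with an adjusted p of 1. The lowest and highest changes were -0.84 ± 0.33 (Parp9) and 0.57 ± 0.33 (Trim21) in clone 2, and -0.76 ± 0.80 (Adar) and 0.95 ± 0.36 (Ifit2) in clone 1. In wild type, Lgals3bp was at 576, 479, 664 and 505 scaled TPM with the plasmid, against 447, 468, 395 and 404 without it (log2 0.37 ± 0.15, adjusted p = 0.8). Bst2 was at 2.16, 2.21, 3.25 and 2.66 scaled TPM with the plasmid in wild type, against 1.71, 1.90, 0 and 0 without it (log2 1.08 ± 0.41, adjusted p = 0.715). These 2 genes were higher in every plasmid library of wild type, as were 1.04% of all tested genes. Whether the plasmid altered the virus response was tested as an interaction. No tested gene of the set was called in clone 2, clone 1 or wild type, where 0.0616%, 2.05% and 0.0924% of all genes were. Fitted alone, clone 1 had 0% of all tested genes called for the interaction and 0% for the plasmid. With limma, 1, 2 and 4 of the 34 had an unadjusted p under 0.05, against 442, 2181 and 938 of all 16233 genes. Isg15 in wild type, with values above 1 scaled TPM only where virus and plasmid were combined, gave an interaction of log2 1.40 ± 0.47 (adjusted p = 0.484). The plasmid responses of clone 2 and clone 1 did not differ from wild type past the threshold for any of the 34. Over all tested genes 0% and 0.0739% were called. With limma, 1 of the 34 in each had an unadjusted p under 0.05, against 547 and 1415 of all 16233 genes.

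**Figure D4:**
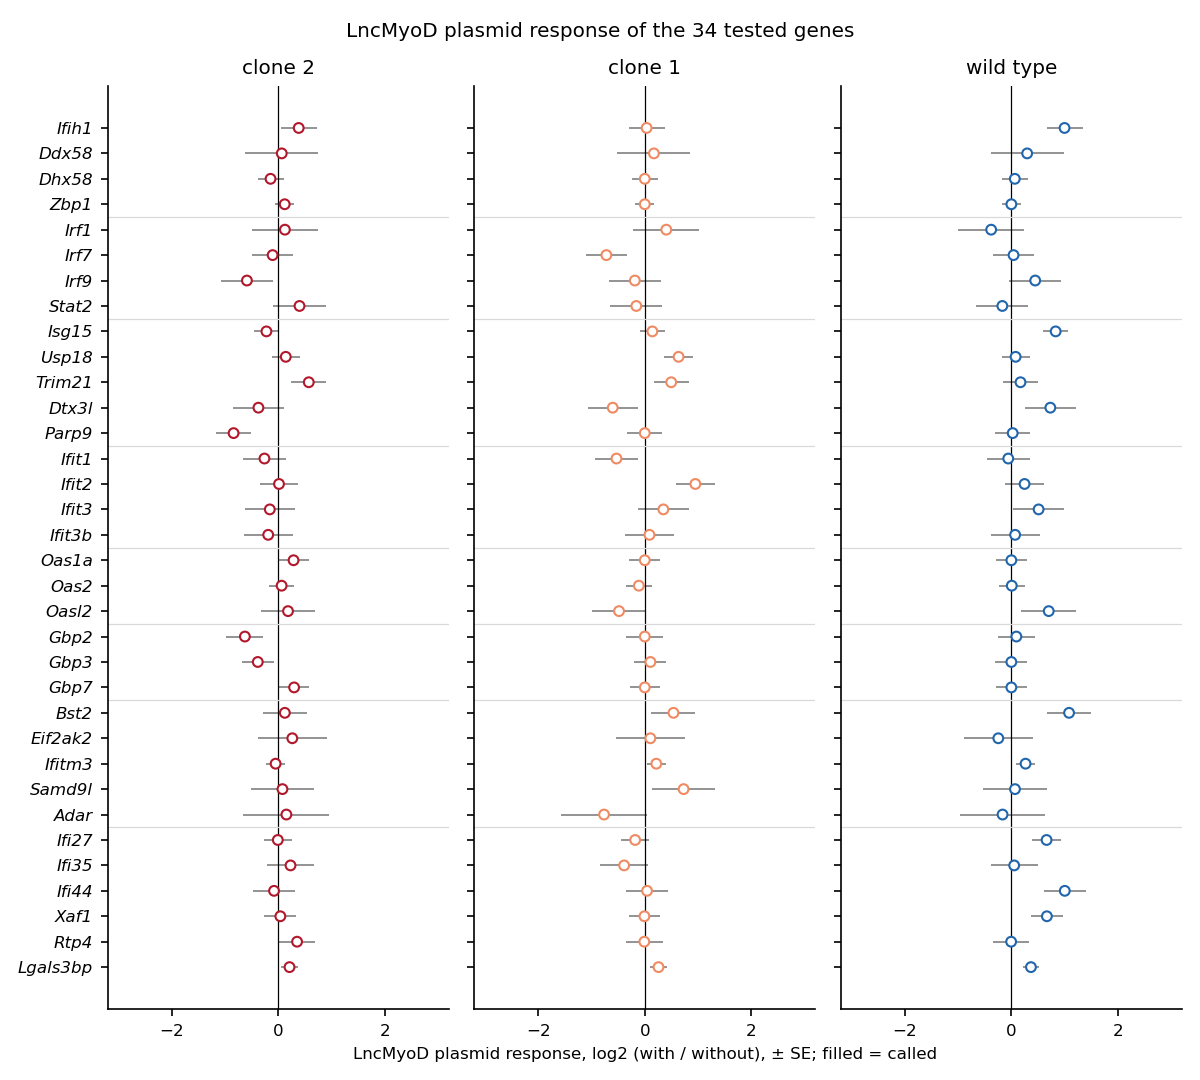
LncMyoD plasmid response of the 34 tested genes, as log2 of the level with over without the plasmid (x axis, ± SE, 4 libraries each), in clone 2, clone 1 and wild type on the same scale as the virus responses. No point is filled, and the values of Isg15, Ifit1, Ifitm3 and Bst2 in clone 2 lie between -0.26 and 0.12. The SE of a gene is shared by all lines.

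The lines themselves differed at several of these genes over all 4 treatments. In clone 2, 14 of the 34 were higher than in wild type and 3 lower, where 36.8% of all tested genes were called, 23.3% higher and 13.5% lower. With TPM as deposited, 28 were called higher and none lower (59.9% of all genes called), so the levels of clone 2 against wild type depend on the scaling. Reference-named transcripts held a median of 86.2% of the assembled TPM per gene of the set in clone 2, 61.7% in clone 1 and 54.9% in wild type. At Dhx58 they held 94.3% in clone 2 and 17.7% in wild type. With unnamed transcripts of the locus added, 15 were called higher and 6 lower (40% of all genes called). Ifi27 ranged from 84.2 to 196 scaled TPM in clone 2 (median 121, n = 8), against 7.2 to 18.6 in wild type (median 15.2, n = 8), a log2 change of 3.10 ± 0.19 (adjusted p = 7.75e-10). Ifitm3 ranged from 82.7 to 286 scaled TPM in clone 2 (median 149), against 24.3 to 45.2 in wild type (median 32.0), and Bst2 from 6.80 to 28.2 (median 14.1), against 0 to 3.25 (median 2.03). Dhx58, a relative of the RNA sensors, ranged from 1.94 to 9.56 scaled TPM in clone 2, against 0 to 0.64 in wild type, and Gbp3 from 1.03 to 5.57, while it was listed at 0 in all wild type libraries. These 5 genes were higher in every clone 2 library than in any wild type library. How many of all tested genes lay apart in this way was not counted, so the 5 describe single genes only. Dhx58 and Gbp3 reached 1 scaled TPM in clone 2 alone and so entered the test only through the line where they were high. The same held for Gbp2, Gbp7, Oas1a and Zbp1. Lgals3bp ranged from 31.6 to 90.2 scaled TPM in clone 2 (median 51.4), against 395 to 664 in wild type (median 474), a log2 change of -3.19 ± 0.11 that was -0.19 and not called with TPM as deposited. The other 11 called genes overlapped between the lines, 9 of them higher in clone 2 and Ifit2 (-1.19 ± 0.26) and Ifi44 (-1.23 ± 0.28) lower.

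In clone 1, 4 of the 34 were lower than in wild type and none higher, where 6.36% of all tested genes were called, 5.14% lower and 1.22% higher. With limma, 15 of the 34 had an unadjusted p under 0.05, against 4379 of all 16233 genes. Rtp4 ranged from 0 to 0.21 scaled TPM in clone 1, against 0.38 to 2.34 in wild type, without overlap (log2 -1.05 ± 0.24, adjusted p = 0.00995). How many of all tested genes lay apart in this way was not counted. Reference-named transcripts held 21.9% of the assembled TPM at Rtp4 in clone 1 and 100% in wild type. The call of Rtp4 ended with unnamed transcripts of the locus added (log2 -0.92) and with TPM as deposited (-0.79). Ifit3 was listed at 0 in 7 of 8 clone 1 libraries and ranged up to 6.34 scaled TPM in wild type, where 1 library was at 0 (log2 -1.91 ± 0.33, adjusted p = 0.0015). Ifi44 ranged from 0 to 0.78 scaled TPM in clone 1, against 0.053 to 10.7 in wild type (log2 -1.71 ± 0.28, adjusted p = 0.0008), and Ifi35 from 1.37 to 32.7, against 15.7 to 45.5 (log2 -1.02 ± 0.31, adjusted p = 0.045). Of the 40 genes with a transcript, 10 were listed at 0 in all 8 clone 1 libraries and 7 in all 8 wild type libraries. Leaving out 1 of the 16 libraries ended the call of Ifi35 in 11 cases and of Rtp4 in 4. Over all 16 such fits the log2 change was -1.33 to -0.70 for Ifi35 and -1.16 to -0.95 for Rtp4. Among other settings the call ended in 5 of 8 for Ifi35, 2 of 7 for Rtp4, 0 of 8 for Ifit3 and 0 of 7 for Ifi44.

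The rest of the interferon pathway was followed in 142 further genes, 76 of them tested. Interferon beta (Ifnb1) was listed at 0 in 22 of 24 libraries, with 0.62 scaled TPM in 1 wild type library given virus and plasmid and 0.086 in 1 clone 1 library given the plasmid alone. The 17 interferon genes with a transcript summed to 0.16 to 0.60 scaled TPM with the virus in clone 2, against 0.23 to 0.76 without it. Their sums were 1.71 to 10.8 in clone 1 with the virus, against 1.17 to 9.32 without it. In wild type they were 1.01 to 2.78 with the virus, against 0.34 to 2.315 without it. These sums should not be compared between lines, because TPM was divided by 3.87 to 6.32 in clone 2 and by 0.35 to 0.49 in clone 1. No single value exceeded 3.68 scaled TPM. In clone 2, Irf3, a factor that turns on interferon beta, gave a log2 difference of 0.11 ± 0.40 with the virus (adjusted p = 1) and Ifnar2 one of -0.46 ± 0.57 (adjusted p = 0.981), and the groups of both overlapped. Ifnar1 was lower in every virus library, at 3.90 to 5.96 scaled TPM, against 10.3 to 11.0 without the virus (log2 -0.93 ± 0.45, adjusted p = 0.318).

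Of the 76 tested pathway genes, the virus raised 3 and lowered 1 in clone 2, lowered 2 in clone 1 and changed none in wild type. In wild type 4 of the 76 had an unadjusted p under 0.05 with limma, against 949 of all 16233 genes. Over all tested genes 4.01% were called in clone 2, 1.42% in clone 1 and 0.253% in wild type, so the counts in clone 2 and clone 1 are near the background. With each line fitted alone these shares were 5.36%, 0.0185% and 0.0493%. The calls of pathway genes under that fit are not given here. The 3 raised in clone 2 were also interferon-induced genes: Apol9a was at 34.5, 27.9, 25.1 and 32.4 scaled TPM with the virus, against 13.9, 9.85, 13.5 and 11.6 without it (log2 1.23 ± 0.31, adjusted p = 0.021). Apol9b, a near-identical copy of it, was at 19.97, 16.1, 16.2 and 20.8 scaled TPM with the virus in clone 2, against 4.86, 3.47, 5.92 and 4.30 without it (log2 1.78 ± 0.43, adjusted p = 0.018). Ifi27l2a, a relative of Ifi27, was at 7.80, 3.03, 3.88 and 4.11 scaled TPM with the virus in clone 2, against 1.54, 1.71, 0.79 and 1.54 without it (log2 1.21 ± 0.25, adjusted p = 0.0069). None of the 3 overlapped. Socs3, an inhibitor of cytokine receptor signalling, was at 5.48, 3.16, 4.25 and 4.02 scaled TPM with the virus in clone 2, against 36.5, 24.2, 42.9 and 27.5 without it (log2 -2.67 ± 0.28, adjusted p = 2.89e-05). Its groups were far apart, and the response of clone 2 lay below that of wild type by log2 -2.54 ± 0.40 (adjusted p = 0.00333). Helz2, a helicase, was at 7.76 and 2.58 scaled TPM in the untreated clone 1 libraries and listed at 0 in the other 6, those with the plasmid alone included. Its virus call in clone 1 (log2 -1.24 ± 0.30, adjusted p = 0.042) and its interaction call (log2 2.49 ± 0.60, adjusted p = 0.042) therefore rest on the same 2 libraries. Ifngr2, a chain of the interferon gamma receptor, was at 0, 3.21, 0 and 0 scaled TPM with the virus in clone 1, against 3.13, 3.19, 3.81 and 3.79 without it (log2 -1.64 ± 0.41, adjusted p = 0.050). The plasmid changed none of the 76 past the threshold in clone 2, clone 1 or wild type. With limma, 2, 3 and 3 of them had an unadjusted p under 0.05, against 413, 1910 and 889 of all 16233 genes. Against wild type, 15 of the 76 were higher and 22 lower in clone 2, led by Apol9b (log2 2.77), Il10rb (2.26), Apol9a (2.20) and the kinase Tbk1 (2.18) above wild type and by Ly6e (-6.19), Trim56 (-4.69), Trim12c (-3.99) and Irf2 (-3.48) below it. Over all tested genes 23.3% were higher and 13.5% lower in clone 2. Among those called higher, Ifi27l2a, Iigp1 and Trim30d reached 1 scaled TPM in clone 2 alone. They entered the test only through the line where they were high. Daxx, Ikbke and Phf11d did not reach that level in 2 libraries outside clone 2, so the same held for them. These levels depend on the scaling, which divided TPM by 3.87 to 6.32 in clone 2 and by 0.46 to 0.78 in wild type. The changes of these pathway genes with TPM as deposited are not given here. In clone 1, 16 of the 76 were lower, where 5.14% of all tested genes were, led by Ly6e (-4.88), Tgtp2 (-3.16), Zc3hav1 (-2.17) and the chemokine Ccl5 (-1.95).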

How the data were processed

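RNA was turned into full-length cDNA without keeping its strand, tagmented and sequenced as paired reads of 100 nt, per the labels' protocols. Tools given by the submitters' processing notes are HISAT2 2.1.0, Trimmomatic 0.36, SAMtools 1.3, StringTie 1.3.3 and bcl2fastq 2.19, with the mm10 build, while the file headers name StringTie 2.1.2 guided by GENCODE vM21 with assembly switched on. The authors' deposited TPM per transcript is written in the attribute text, one of the other kinds of column, so TPM was read from there. TPM of reference-named transcripts was summed per gene, 0 where a library listed none, and divided by median-of-ratios factors from the 5091 genes above 0 in all 24 libraries. TPM holds no read counts, so no counting interval is given. A ribosomal class that takes much of a library lowers all other TPM, and transcripts assembled without a reference name were left out of the main values.

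Tests used limma (version 3.58.1, R 4.3.3), its prior variance following mean level, on log2(scaled TPM + 1) over all 24 libraries with 12 group means and 12 residual degrees of freedom, for 15 comparisons. This scale understates changes of low genes. The spread of a gene was shared by all lines, so its SE and p-values do not speak for the spread within 1 line. Replicates correlated least in clone 1. The virus contrast is the mean of the 2 groups with the virus minus the mean of the 2 without it in a line, and the plasmid contrast likewise. The fit was tested on simulated data. The 43 genes, the pathway list and the markers were chosen with earlier results of these data known. Values per library are given for genes called for the virus (between lines, ranges over 8 libraries, where over 12 were called for those without overlap), and in every line for Isg15, Ifit1, Irf7, Stat2, Oasl2, Bst2 and Ifitm3. Other genes named with values were picked once their values were known. A result for 1 further gene of the pathway list is not reported here.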

Additional observations from a re-analysis of the deposited data

Results flagged for a closer look

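The virus response differed between lines for 4 genes, by the test of the difference itself. The difference of clone 2 minus wild type was log2 2.03 for Rtp4, 1.13 for Ifitm3 and -1.09 for Lgals3bp, and the difference of clone 1 minus wild type was log2 -2.47 for Ifih1. Rtp4 and Ifitm3 rose in clone 2 (log2 2.27 and 1.36) and not past the threshold in wild type (0.24 and 0.24). Lgals3bp changed by -0.93 in clone 2 and 0.17 in wild type. Ifih1 changed by -0.89 in clone 1, where it was listed at 0 in every virus library, and by 1.58 in wild type.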

How the results depend on the processing

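The virus calls in clone 2, 8 in the report, numbered 13 (8 higher, 5 lower) with TPM as deposited, 2 (Ifitm3 and Rtp4) with a pseudocount of 0.1, 5 with no filter on low values, and 5 with genes at 1 scaled TPM in at least 12 libraries; leaving out 1 library gave 4 to 7. The 1 call in wild type was 0 with TPM as deposited, a pseudocount of 0.1, unnamed transcripts added, wild type fitted alone, wild type scaled alone and the 12-library filter, and 1 to 2 with 1 library left out. In clone 1 the count of 0 was 1 with quantile normalization and with unnamed transcripts added, and 0 to 1 with 1 library left out. For the plasmid and for its interaction in clone 2 it was 1 with TPM as deposited, and the interaction in clone 1 had 0 to 1 with 1 library left out. The difference of clone 1 minus wild type in the virus response, 1 in the report, was 0 with TPM as deposited, a pseudocount of 0.1, only these lines fitted, the replicate block and the 12-library filter, and 0 to 2 with 1 library left out. The difference of clone 2 minus wild type, 3 in the report, was 6 (2 higher, 4 lower) with TPM as deposited, 1 with quantile normalization and 1 with the replicate block, and 0 to 3 with 1 library left out. Clone 1 against wild type had 8 calls with TPM as deposited and 2 to 6 with 1 library left out, against 4; clone 2 against wild type had 28 with TPM as deposited, 11 with the 12-library filter and 14 to 18 with 1 library left out, against 17. Other totals stayed within 1.5 times the reported one, though the virus split in clone 2 was 5 higher and 2 lower with quantile normalization and 7 higher and 4 lower with clone 2 scaled alone. In clone 2 against wild type, Ifi44 turned to log2 0.27 and Ifit2 to 1.27 with TPM as deposited, and Xaf1 to -1.07 with unnamed transcripts added. Scaling and filtering within a line and the 12-library filter were chosen after seeing the data. The 12-library filter took genes out before the test, so its lower counts are not failed calls. It removed Isg15, Rtp4, Oas1a, Ifi44, Ifih1, Dhx58, Gbp3 and Gbp2, at 1 scaled TPM in 10, 11, 3, 8, 6, 8, 8 and 5 libraries. Of the 8 genes called for the virus in clone 2, it left 5, and these 5 kept their calls. The cause of the other changes was not tested.

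Replicate numbers did not pair the samples: same-numbered libraries of a line correlated at r = -0.073 to 0.030 in their deviations from group means, in 18 pairs with 0 over 0.1. With the number as a block, the virus calls in clone 2 were 6 and those against wild type 17 in clone 2 and 4 in clone 1. With 2 libraries per group and an unknown number of reads per value, changes of genes at or near 1 scaled TPM could not be told from assembly failure.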
